A study of Mus musculus with 45 samples.

Results

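The comparison described here asks whether myocardial injury moved gene expression by a different amount in mouse hearts that were overexpressing ERBB2 than in wild-type hearts. It is the overexpression by injury interaction at the first time of the study, T1, while the transgene was on. The value for each gene is the injured minus sham difference in overexpressing hearts, minus the same difference in wild-type hearts, on a log2 scale. All 16 libraries of T1 entered it, of 45 in the series, and they form 4 groups of 4. WT sham hearts had the wild-type genotype and the sham procedure. WT MI hearts had the wild-type genotype and the injury labelled MI, which the title of the series describes as ischemic. OE sham and OE MI hearts carried the transgene for transient overexpression of ERBB2 in cardiomyocytes, with the sham procedure and with MI. All 4 groups are labelled as belonging to the dedifferentiation stage. Strain, age, sex, the promoter that drives the transgene, the delay between injury and collection, and whether wild-type animals received the inducing regimen are not stated in those labels.

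ERBB2 is a receptor tyrosine kinase without a ligand of its own, which pairs with ERBB receptors bound to neuregulin and signals through the RAS and ERK cascade. In the heart its activation in cardiomyocytes is known to drive dedifferentiation and re-entry into the cell cycle. Myocardial infarction kills cardiomyocytes and turns resident fibroblasts into matrix-secreting cells that build a scar of collagens, matricellular proteins such as periostin, and the proteases that remodel them. A gene has a negative interaction if injury raised it less, or lowered it more, in overexpressing hearts.

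Among 15375 genes tested, 14 were called (0.0911%), which means an adjusted p under 0.05 with limma and Benjamini-Hochberg adjustment over all genes. Of these, 12 had a negative value (0.078% of genes tested) and 2 a positive one (0.013%). On the recovered reads, edgeR called 13 of the 14 (0.103% of its genes were called, 0.0901% lower) and DESeq2 called 14 of 14 (0.901%). Of the 14, 7 belong to the matrix gene lists described further on, and Fbln7 and Pamr1 were grouped with them after the calls were seen. These 9 encode proteins of the extracellular matrix or enzymes acting on it: the collagens Col3a1 and Col5a2, the matricellular proteins Postn, Sparc and Fbln7, and the proteases or protease-like proteins Ctsk, Mmp2, Adamts12 and Pamr1. The other 3 negative genes were Itm2a, which encodes a membrane protein, Eno2, which encodes a glycolytic enolase, and Ret, which encodes the receptor tyrosine kinase for ligands of the GDNF family. Both positive genes, Satb1 and Ankrd63, encode proteins outside the matrix: Satb1 is a chromatin organiser with a major role in developing T cells.

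The libraries held 14694009 to 19015856 gene-assigned reads each. Mitochondrial genes took 24.66 to 28.19% of reads in WT sham, 22.55 to 26.65% in WT MI, 17.03 to 18.2% in OE sham and 15.59 to 17.02% in OE MI hearts. All 10 cardiomyocyte markers checked were expressed in every group, with summed normalized counts of 1114000 to 1269000 in WT sham, 1023000 to 1115000 in WT MI, 700500 to 832600 in OE sham and 649400 to 769100 in OE MI. Erbb2 itself checks the genotype labels. It was at 243 to 250.2 normalized counts in WT sham and 201 to 303 in WT MI libraries. In OE sham libraries it was at 769.7 to 2436, and in OE MI libraries at 769 to 2401. Both OE groups lay above all WT libraries and overlapped each other, and the Erbb2 interaction was -0.19 ± 0.49 (SE, log2; limma adjusted p = 0.935, n = 4 libraries per group).

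Some libraries stood apart from the rest of their group. On the second principal component, which held 17% of the variance, WT MI replicate 1 (15.12) and OE MI replicate 4 (16.24) lay on the side of the sham libraries, whose values ran from 5.6 to 40.31, while the other 6 MI libraries lay between -52.25 and -19.32. OE MI replicates 1, 3 and 4 held more transcripts of genes expressed in the thymus than the other libraries. The normalized counts of 12 such genes, chosen after their values were seen, summed to 1454.14, 2423.23 and 977.52 in these 3 libraries and to 30.74 to 106.0 in the 13 others. Rag1, which encodes a recombinase of lymphocyte precursors, was at 255, 423 and 161 in these 3 and at most 5.46 in the others. Psmb11, a proteasome subunit of the epithelium of the thymic cortex, was at 18.6, 11.2 and 9.72 there and at 0 in the 13 others. The set is called thymocyte genes or transcripts below, although Psmb11 and Prss16 are genes of thymic epithelium. Where these transcripts came from was not tested. Leaving out these 3 libraries ended the call of 12 of the 14 genes, and leaving out WT MI replicate 1 and OE MI replicate 4 ended that of 6. The values are given with each gene. Without the 3 libraries the OE MI group is a single library, which is assumed to vary like the other groups.

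Promoters are shown for 4 of the matrix genes, whose groups had a like order. RefSeq promoter sequences (GRCm38.p6) were matched for 10 of the 14 genes, with 15 promoters in all. The 250 bases before a start annotated by RefSeq are printed 5′ to 3′ on the gene's strand for the called gene with the smallest p (Ctsk), the next by p (Fbln7), the marker of activated fibroblasts Postn and the collagen gene Col3a1. The RefSeq start of Fbln7 lies within the GENCODE gene, downstream of its first base. RefSeq has a second Postn promoter, farther upstream and without a match to any motif searched, which is not printed. Capitals mark matches, on either strand, to the TEAD core GGAATG or the TATA box TATAAA.
Ctsk, chr3:95498960-95499209, plus strand: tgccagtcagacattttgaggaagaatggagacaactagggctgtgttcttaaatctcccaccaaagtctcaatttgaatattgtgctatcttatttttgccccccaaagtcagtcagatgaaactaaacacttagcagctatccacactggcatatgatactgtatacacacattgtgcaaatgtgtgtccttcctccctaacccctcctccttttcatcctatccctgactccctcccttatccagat
Fbln7, chr2:128863682-128863931, plus strand: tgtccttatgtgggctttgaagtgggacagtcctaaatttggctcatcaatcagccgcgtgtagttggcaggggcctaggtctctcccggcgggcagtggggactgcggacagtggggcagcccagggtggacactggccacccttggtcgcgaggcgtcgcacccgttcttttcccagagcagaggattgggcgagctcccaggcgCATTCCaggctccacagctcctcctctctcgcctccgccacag
Postn, chr3:54360857-54361106, plus strand: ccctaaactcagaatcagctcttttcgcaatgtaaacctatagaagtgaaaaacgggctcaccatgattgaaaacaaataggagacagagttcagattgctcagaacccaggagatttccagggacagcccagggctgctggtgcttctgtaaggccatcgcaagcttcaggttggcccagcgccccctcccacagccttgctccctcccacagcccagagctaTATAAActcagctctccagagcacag
Col3a1, chr1:45311288-45311537, plus strand: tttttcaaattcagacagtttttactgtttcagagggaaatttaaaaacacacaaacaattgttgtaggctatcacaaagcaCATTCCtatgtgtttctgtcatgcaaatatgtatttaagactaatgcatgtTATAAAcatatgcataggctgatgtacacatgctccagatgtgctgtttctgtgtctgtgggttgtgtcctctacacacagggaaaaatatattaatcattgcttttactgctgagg
Of the 15 promoters of called genes, 4 held the TEAD core (those of Ankrd63, Fbln7, Eno2 and Col3a1) and 4 held TATAAA (those of Ankrd63, Eno2 and Col3a1, and 1 of Postn). The shares among all 32851 RefSeq promoters of the same length were 12.6% and 12.4%. The AP-1 motif TGANTCA, present in 6.75% of all promoters, and the CArG box, present in 1.47%, had no match in these windows. A match describes the letters only.

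The matrix proteases carried the interaction with the smallest p. Ctsk encodes cathepsin K, a cysteine protease that cleaves collagen (chromosome 3, 95499256 to 95509362, GRCm38). Its normalized counts in replicates 1 to 4 were 118, 118, 102 and 126 in WT sham, 301, 240.4, 397 and 376 in WT MI, 769, 637, 789.7 and 697 in OE sham, and 689, 592, 733 and 635 in OE MI hearts. Every WT MI library was above every WT sham library, every OE sham library was above every WT MI library, and OE MI overlapped OE sham. The injury difference of Ctsk was 1.47 ± 0.13 (SE, log2) in WT and -0.13 ± 0.13 in OE hearts, so that the interaction was -1.60 ± 0.19 (limma adjusted p = 0.00496). It was called with each of the 16 libraries left out in turn.

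Mmp2 encodes gelatinase A, a metalloprotease secreted mainly by fibroblasts (chromosome 8, 92827291 to 92853420). It stood at 1765, 1848, 1898 and 1485 in WT sham, 3743, 3433, 5446 and 4083 in WT MI, 8703, 7934, 9475 and 11013 in OE sham, and 9408, 9444, 7974 and 9320.3 in OE MI. The groups had the same order as for Ctsk, with no overlap except between both OE groups. Injury differed from sham by 1.24 ± 0.13 in WT and by -0.03 ± 0.13 in OE, an Mmp2 interaction of -1.27 ± 0.19 (limma adjusted p = 0.0218). Without the 3 libraries of thymocyte transcripts it was -1.20 (limma adjusted p = 0.0829). Adamts12, a secreted metalloprotease with thrombospondin repeats, ran from 37.1 to 63.6 in WT sham, 102 to 134 in WT MI, 219 to 331 in OE sham and 230.5 to 279.5 in OE MI, with an interaction of -1.41 ± 0.23 (limma adjusted p = 0.0218), and of -1.28 without those 3 libraries (limma adjusted p = 0.108). Pamr1, which encodes a secreted protein with a peptidase-like domain, ran from 81.1 to 132, 199 to 324, 700.4 to 798 and 378 to 795 in the same order, with an interaction of -1.74 ± 0.29 (limma adjusted p = 0.0284), and of -1.19 without them (limma adjusted p = 0.115). The Pamr1 injury difference was -0.44 ± 0.20 in OE hearts, the lowest of the 9 matrix genes.

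Among the called genes, Postn had the widest gap between sham groups. It encodes periostin, secreted by activated fibroblasts after infarction (chromosome 3, 54361109 to 54391037). Postn was at 1599, 1293, 1213 and 1212 in WT sham, 5538, 3429, 5395 and 6785 in WT MI, 18478, 19533, 16751 and 12072 in OE sham, and 16202, 21037, 20853 and 15323 in OE MI. The lowest OE sham library was above the highest WT MI library, and the OE MI libraries lay around the OE sham libraries. With injury differences of 1.96 ± 0.19 (WT) and 0.14 ± 0.19 (OE), Postn had an interaction of -1.81 ± 0.27 (limma adjusted p = 0.0218). It was -1.60 without the 3 libraries of thymocyte transcripts (limma adjusted p = 0.0997) and -1.70 without the 2 MI libraries on the sham side (limma adjusted p = 0.0712).

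Fbln7 encodes fibulin 7, a cell adhesion protein of the matrix (chromosome 2, 128862981 to 128897034). It was at 14.1, 11.4, 20.5 and 15.9 in WT sham and at 41.9, 63.4, 86.8 and 70.3 in WT MI. OE sham libraries had 179, 133, 207 and 175, and OE MI libraries 144, 133, 117 and 155. The Fbln7 interaction of -2.32 ± 0.30 (limma adjusted p = 0.00889) came from 2.00 ± 0.22 in WT and -0.33 ± 0.22 in OE hearts, and it was called with each of the 16 libraries left out in turn. Without the 3 libraries together the Fbln7 value was -2.36 and not called (limma adjusted p = 0.0536). Sparc encodes osteonectin, a collagen-binding glycoprotein. Its counts ran from 9966 to 12183 in WT sham, 18799.7 to 27907 in WT MI, 39921 to 50613 in OE sham and 39384 to 53644 in OE MI, with an interaction of -1.10 ± 0.18 (limma adjusted p = 0.0218). For Sparc the value was -1.10 without the 3 libraries (limma adjusted p = 0.0650) and -1.05 without the 2 on the sham side (limma adjusted p = 0.0666).

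The collagens showed the same arrangement with more spread. Col3a1 encodes the chain of collagen III, the fibrillar collagen laid down early in scars (chromosome 1, 45311538 to 45349706). It was at 4615, 4297, 6262 and 4798 in WT sham, 19659, 15104, 32245 and 28771 in WT MI, 33312, 35609, 42219 and 32096 in OE sham, and 47233, 52117, 36287 and 27631 in OE MI. WT MI replicate 3 reached the range of OE sham, so Col3a1 was the 1 of 9 matrix genes whose OE sham libraries were not all above WT MI. The injury difference was 2.21 ± 0.23 in WT and 0.15 ± 0.23 in OE, an interaction of -2.06 ± 0.33 (limma adjusted p = 0.0218). Without the 3 libraries of thymocyte transcripts the Col3a1 value was -1.66 (limma adjusted p = 0.0997). Col5a2, a chain of collagen V that takes part in starting collagen fibrils, ran from 685 to 901 in WT sham, 1958 to 3559 in WT MI, 4266 to 5842 in OE sham and 4579 to 6901 in OE MI. Its interaction was -1.52 ± 0.26 (limma adjusted p = 0.0339), and -1.41 without those libraries (limma adjusted p = 0.0997). Col3a1 and Col5a2 are neighbours on chromosome 1 and do not overlap.

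**Figure D1:**
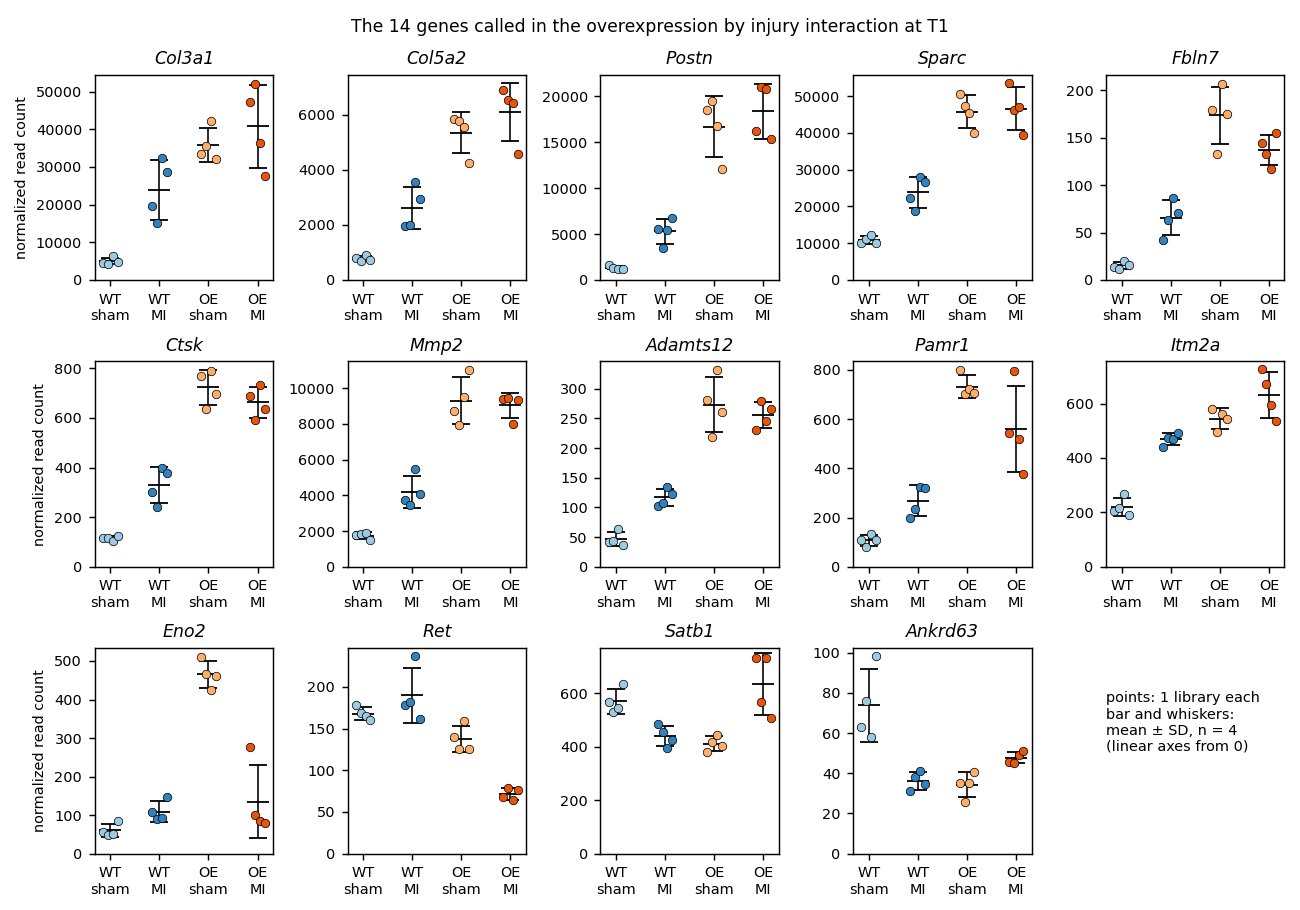
Normalized read counts on linear axes from 0 (y) of the 14 called genes in each of the 4 groups of T1 (x); each point is 1 library and the bar with whiskers is the mean ± SD of 4. For the matrix genes WT MI lies above WT sham while OE MI overlaps OE sham; Eno2 and Ret are lower in OE MI than in OE sham; Satb1 and Ankrd63 are lower in WT MI than in WT sham and higher in OE MI than in OE sham.

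Put together, the 9 matrix genes were alike in the order of their groups. All 9 were higher in every WT MI library than in every WT sham library, an arrangement that 7.51% of all tested genes had. In 8 of 9, every OE sham library was above every WT MI library, which held for 16.7% of genes. In 9 of 9, OE MI overlapped OE sham, but so it did in 95% of genes, so the overlap does not set them apart. The injury difference ran from 1.12 to 2.21 in WT and from -0.44 to 0.18 in OE hearts, and OE sham exceeded WT sham by 2.08 to 3.64. These counts are not independent of the call, since a large WT injury difference with a small one in OE gives a negative interaction. On the linear scale of normalized counts the sign of the interaction was kept for 14 of 14 called genes. In Postn the mean gained 3958 counts with injury in WT and 1646 in OE, and in Ctsk it gained 213 in WT and was lower by 61.0 in OE.

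Fibroblast markers held no called gene, and most had a negative value. Of 20 fibroblast identity and activation genes tested, 0 were called by limma or edgeR and 3 by DESeq2, all lower (0.762% of all genes were). With limma, 11 had an unadjusted p under 0.05, all with a negative value (6.06% of all genes were so), and 16 of 20 values were negative. Their summed normalized counts ran from 47020 to 62620 in WT sham, 67410 to 77780 in WT MI, 66760 to 75570 in OE sham and 71860 to 85230 in OE MI, and no member was at 0 in all libraries. Col1a1 is part of these sums, with group means of 2513, 10294, 19617 and 20574 in the same order. Lrrc15 (0.92) and Wif1 (0.42) had the highest positive values. The list shares Col1a1, Mfap5 and Fap with the matrix lists, and its part in the matrix results was not tested. In RNA from whole hearts, a change in the number of cells of a type and a change in RNA per cell cannot be told apart.

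Itm2a and both other negative genes outside the matrix departed from each other in form. Itm2a, which is expressed in differentiating cartilage, muscle and T cells, ran from 192 to 267 in WT sham, 442 to 493 in WT MI, 494 to 581 in OE sham and 536 to 728 in OE MI. Its injury difference was 1.09 ± 0.11 in WT and 0.21 ± 0.11 in OE, with an interaction of -0.88 ± 0.15 (limma adjusted p = 0.0284). It was -0.79 without the 3 libraries of thymocyte transcripts (limma adjusted p = 0.0915) and -0.84 without the 2 on the sham side (limma adjusted p = 0.0666). Itm2a thus had the arrangement of the matrix genes.

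Eno2 had the most negative value of the called genes. It encodes enolase 2, the gamma or neuron-specific form of a glycolytic enzyme (chromosome 6, 124760053 to 124769673). Eno2 was at 56.5, 49.4, 51.1 and 83.7 in WT sham, 109, 89.6, 92.2 and 147 in WT MI, 509.6, 467, 425 and 459.9 in OE sham, and 277, 100.4, 83.6 and 78.7 in OE MI. All OE MI libraries lay below all OE sham libraries, an arrangement found in 2.66% of genes, and 3 of 4 were within or below the range of WT MI. The injury difference was 0.86 ± 0.31 in WT and -1.99 ± 0.31 in OE, an interaction of -2.84 ± 0.44 (limma adjusted p = 0.0218). edgeR's quasi-likelihood test gave Eno2 an adjusted p of 0.0506, and without the 2 MI libraries on the sham side its value was -2.65 (limma adjusted p = 0.0712). OE MI replicate 1, at 277, was apart from the others. The list of 27 glycolysis and pentose phosphate genes does not include Eno2. Of these 27, 0 were called by limma, edgeR or DESeq2, and 2 had an unadjusted limma p under 0.05 (1 lower and 1 higher). Their median interaction was 0.02 as deposited and -0.01 after scaling to library totals or by TMM.

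Ret was the called gene whose WT hearts showed the smallest injury difference. It encodes the signalling receptor for GDNF family ligands (chromosome 6, 118151745 to 118197718). Ret was at 178, 168, 165 and 160.1 in WT sham, 178, 181, 238 and 162 in WT MI, 140.2, 126, 159 and 126 in OE sham, and 68.1, 78.6, 64.1 and 76.0 in OE MI. Both WT groups overlapped, and every OE MI library was below every other library. The injury difference of Ret was 0.16 ± 0.12 in WT and -0.93 ± 0.12 in OE hearts, with an interaction of -1.09 ± 0.17 (limma adjusted p = 0.0218). It was -0.95 without the 3 libraries of thymocyte transcripts (limma adjusted p = 0.0997) and -1.14 without the 2 on the sham side (limma adjusted p = 0.0509).

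Satb1 and Ankrd63 went the opposite way. Satb1 (chromosome 17, 51736187 to 51833290) was at 568, 531, 546 and 636 in WT sham, 485, 456, 396 and 424 in WT MI, 381, 418, 445 and 404 in OE sham, and 734, 566, 732 and 509 in OE MI. WT MI lay below WT sham and OE MI above OE sham, without overlap. The 2 injury differences of Satb1, -0.37 ± 0.11 for WT and 0.61 ± 0.11 for OE, gave an interaction of 0.98 ± 0.16 (limma adjusted p = 0.0218). Satb1 is highly expressed in thymocytes, and the libraries with thymocyte transcripts, OE MI 1, 3 and 4, had 734, 732 and 509. OE MI replicate 2, with a thymocyte sum of 73.18, had 566, above all OE sham libraries. With these 3 libraries left out the Satb1 interaction was 0.83 and no longer called (limma adjusted p = 0.0536). The thymocyte kinase gene Lck and transcription factor gene Tcf7 had interactions of 2.71 ± 0.84 (limma adjusted p = 0.284) and 2.45 ± 0.94 (limma adjusted p = 0.408), and 0.48 and -0.21 without the 3 libraries. In GENCODE M21, 6 other genes overlap Satb1, 1 of them among the genes listed, and reads from them cannot be told apart where counting did not use strand.

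Ankrd63, which encodes a protein with ankyrin repeats (chromosome 2, 118699103 to 118703963), was at 62.9, 76.0, 58.0 and 98.6 in WT sham, 31.1, 38.2, 41.2 and 34.6 in WT MI, 35.0, 25.9, 35.4 and 40.8 in OE sham, and 45.6, 45.2, 49.2 and 51.3 in OE MI. WT MI and OE sham both lay below WT sham, and OE MI lay between them. Its injury difference was -0.98 ± 0.18 in WT and 0.48 ± 0.18 in OE, with an interaction of 1.47 ± 0.26 (limma adjusted p = 0.0398), the last of the called values. The Ankrd63 value was 1.39 without the 3 libraries (limma adjusted p = 0.118) and 1.36 without the 2 on the sham side (limma adjusted p = 0.108). A WT MI group wholly below WT sham occurred in 7.08% of genes, and an OE MI group wholly above OE sham in 2.35%.

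**Figure D2:**
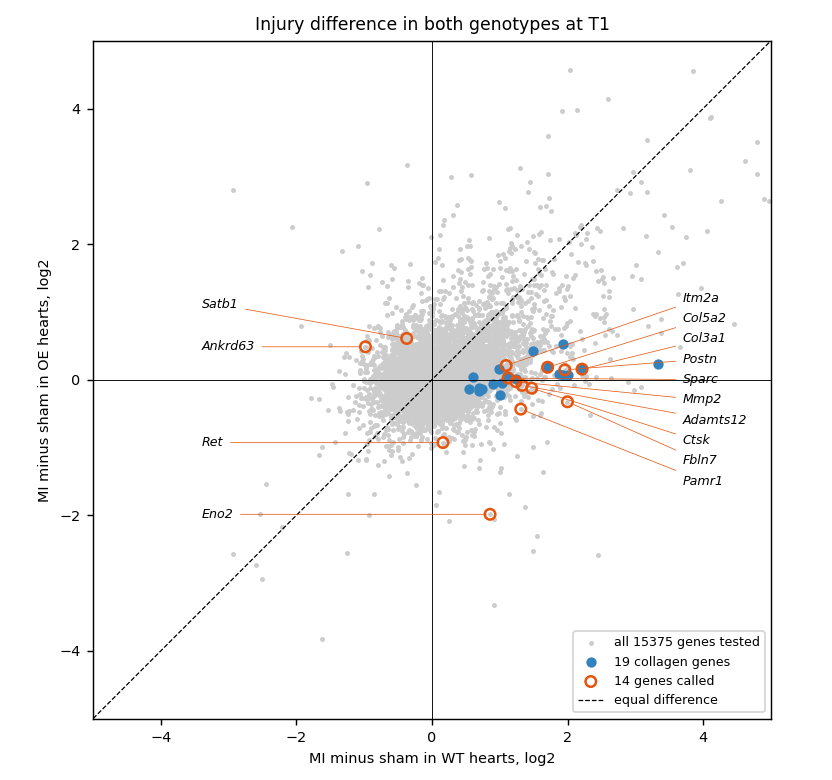
Injured minus sham difference in WT hearts (x, log2) against the same difference in OE hearts (y, log2) for the 15375 genes tested at T1, with the 19 collagen genes in blue, the 14 called genes ringed and a dashed line of equal difference; 10 genes lie outside the axes. The 9 called matrix genes lie between 1.12 and 2.21 in WT and -0.44 and 0.18 in OE, the collagens between 0.55 and 3.33 in WT and -0.23 and 0.52 in OE, while Eno2 and Ret lie below and Satb1 and Ankrd63 to the upper left.

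The 4 genes next after the called ones shared a limma adjusted p of 0.0617. Col6a1, a chain of the microfibril-forming collagen VI, had an interaction of -1.07 ± 0.20, and Ppic, a cyclophilin of the secretory pathway, one of -0.73 ± 0.14. Adra1b, the alpha-1B adrenergic receptor, had 0.96 ± 0.18: it was at 633 to 908 in WT sham, 516 to 687 in WT MI, 165 to 229 in OE sham and 256 to 329 in OE MI. Ccl22, a chemokine for regulatory T cells, was at 0, 1.27, 0 and 0 in WT sham, 6.56 to 11.9 in WT MI, 3.83 to 14.4 in OE sham and 7.01 to 11.6 in OE MI, so its fitted value of -3.19 ± 0.59 depends on the pseudocount.

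The whole collagen list leaned to negative values. Of 19 collagen genes tested, 2 were called lower by limma and by edgeR and 11 by DESeq2 (0.762% of all genes were called lower by DESeq2). All 19 values were negative, against 49.6% of all genes, and 18 had an unadjusted limma p under 0.05, as did 9.54% of all genes. The list median was -1.07, beside 0.00 for all genes, and came from medians of 1.11 in WT and 0.05 in OE hearts. Col1a1, the main chain of collagen I, was at 2294, 2013, 3276 and 2469.9 in WT sham, 7456, 5224, 15541 and 12957 in WT MI, 21436, 20657, 21249.8 and 15125 in OE sham, and 23681, 22231, 20671 and 15711 in OE MI. WT MI libraries differed by more than a factor of 2 among themselves, and the Col1a1 interaction of -1.86 ± 0.39 was not called (limma adjusted p = 0.112). Col1a2 (-1.78 ± 0.35, limma adjusted p = 0.0797) and Col11a1 (-3.09 ± 0.62, limma adjusted p = 0.0869) were not called either.

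Matricellular and scar matrix genes had a median of -1.07, from 1.18 in WT and 0.17 in OE hearts. Of 22 tested, Postn and Sparc were called lower by limma and edgeR, 11 were called lower by DESeq2, and 21 had a negative value. Over all genes these shares were 0.078% called lower by limma, 0.0901% by edgeR and 0.762% by DESeq2, and 49.6% negative. Tnc, which encodes tenascin C of injured tissue, was at 32.9 to 57.2 in WT sham, 179 to 682 in WT MI, 573 to 2262 in OE sham and 1106 to 1469 in OE MI, with an interaction of -2.93 ± 0.58 (limma adjusted p = 0.0869). Cilp, a matrix protein that binds TGF-beta, had -2.38 ± 0.50 (limma adjusted p = 0.112).

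Matrix proteases and their inhibitors gave 3 calls of 29 tested, Ctsk, Mmp2 and Adamts12, by limma and edgeR, and 10 by DESeq2, all lower. Over all genes 0.078% were called lower by limma, 0.0901% by edgeR and 0.762% by DESeq2. The list median was -0.73 and 27 of 29 values were negative, beside 49.6% of all genes. Mmp14, the membrane metalloprotease that activates pro-MMP2, had -1.62 ± 0.32 (limma adjusted p = 0.0869), with an injury difference of 1.62 ± 0.23 in WT and -0.00 ± 0.23 in OE. Among 21 genes of collagen crosslinking and elastic fibres, 0 were called by limma or edgeR and 2 by DESeq2, while 12 had an unadjusted limma p under 0.05 and a negative value (6.06% of all genes did). Lox, the lysyl oxidase that crosslinks collagen, was at 78.3 to 167, 392 to 1191, 553 to 1322 and 989 to 1943 in WT sham, WT MI, OE sham and OE MI, and its interaction of -1.94 ± 0.52 was not called (limma adjusted p = 0.236). On the linear scale the mean of Lox gained 602 counts with injury in WT and 542 in OE hearts.

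**Figure D3:**
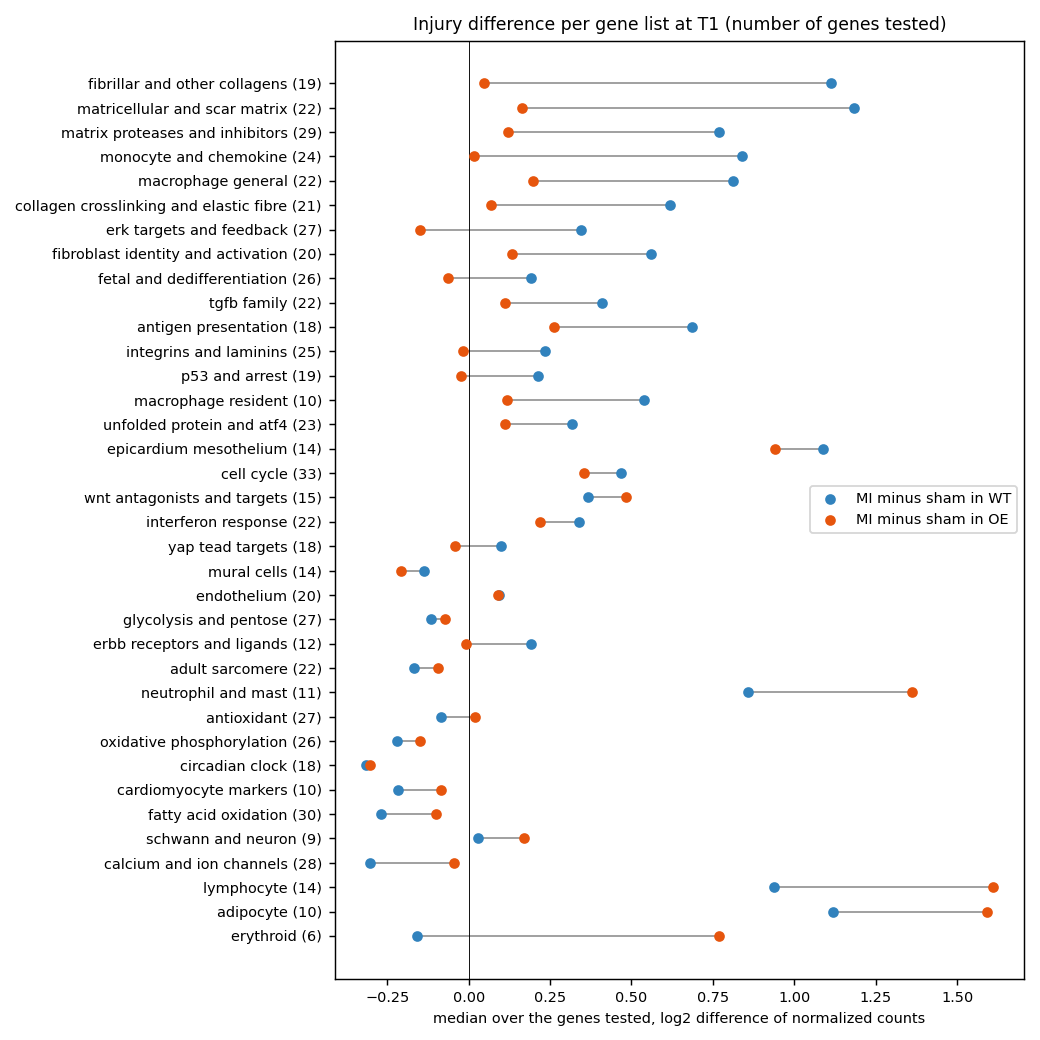
Median injured minus sham difference (x, log2 difference of normalized counts) over the genes tested in each of 36 gene lists (y, number of genes in brackets), in WT (blue) and OE hearts (orange). The 4 matrix lists and the fibroblast, macrophage and monocyte lists lie further right in WT than in OE; lymphocyte, adipocyte and erythroid lists lie further right in OE.

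Immune lists held no called gene. Of 22 macrophage genes 0 were called by limma, edgeR or DESeq2, 7 had an unadjusted limma p under 0.05 with a negative value (6.06% of all genes did), and the median was -0.58, from 0.81 in WT and 0.20 in OE. Adgre1, the macrophage surface marker F4/80, was at 173, 152, 202 and 174 in WT sham, 333, 264, 441 and 344 in WT MI, 313, 323, 364 and 328 in OE sham, and 541, 421, 324 and 254 in OE MI. The OE MI libraries spanned the whole range of the WT MI libraries, and the Adgre1 interaction was -0.80 ± 0.27 (limma adjusted p = 0.329). For Cd68, a lysosomal protein of macrophages, it was -0.66 ± 0.34 (limma adjusted p = 0.569). Of 24 monocyte and chemokine genes 0 were called by any of the 3 tools, 4 had an unadjusted limma p under 0.05 with a negative value, and 23 values were negative, beside 49.6% of all genes. The 14 lymphocyte genes tested had a median of 0.28, with 0 called by limma or edgeR and 1 called higher by DESeq2 (0.14% of all genes were). Of these 14, 3 had an unadjusted limma p under 0.05 and a positive value (3.48% of all genes did). This list includes Lck, which was high in the 3 libraries with thymocyte transcripts.

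Genes downstream of ERK were higher in OE sham than in WT sham hearts, by a list median of 1.47, beside 0.01 for all genes. The rise was not particular to them: this median was 2.32 for collagens and 1.39 for cell cycle genes. It was -0.90 for calcium handling and ion channel genes. Most of the ERK genes had a negative interaction. Of 27 ERK targets and feedback genes 0 were called by limma or edgeR and 2 by DESeq2, 5 had an unadjusted limma p under 0.05 with a negative value, and 26 values were negative, with a median of -0.53 (0.35 in WT and -0.15 in OE). Over all genes 0.762% were called lower by DESeq2, 6.06% had such an unadjusted p and 49.6% were negative. Phlda1, an immediate ERK target, was at 253, 255, 248 and 349 in WT sham, 408, 255, 367 and 567 in WT MI, 1888, 2196, 3052 and 2038 in OE sham, and 984, 1308, 1296 and 1284 in OE MI. OE MI was wholly below OE sham and wholly above WT MI, and the interaction was -1.39 ± 0.29 (limma adjusted p = 0.112). Spred1, a feedback inhibitor of the cascade, had -0.64 ± 0.13 (limma adjusted p = 0.104), with OE MI again wholly below OE sham, at 900.3 to 1020.0 against 1134 to 1333. Spry4, another feedback inhibitor, had -0.24 ± 0.32 (limma adjusted p = 0.859). Erbb2 overlapped between both OE groups, as given above.

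Cardiomyocyte lists held no called gene. Of 28 calcium handling and ion channel genes 0 were called by limma, edgeR or DESeq2, 4 had an unadjusted limma p under 0.05 and a positive value (3.48% of all genes did), and 25 were positive, with a median of 0.26 (-0.30 in WT and -0.05 in OE). Fatty acid oxidation genes had a median of 0.17 with 26 of 30 positive, and oxidative phosphorylation genes 0.08 with 22 of 26 positive. In both lists 0 genes were called by limma, edgeR or DESeq2, and 0 had an unadjusted limma p under 0.05. Over all genes 49.6% of values were negative and the median was 0.00. The stress peptide genes Nppa and Nppb had interactions of -0.40 ± 0.47 (limma adjusted p = 0.834) and -1.49 ± 0.58 (limma adjusted p = 0.431). Myh6, the adult myosin heavy chain gene, had 0.02 ± 0.18 as deposited, and -0.02 and -0.01 after scaling to library totals and by TMM (limma adjusted p = 0.988 as deposited). Myh7, the fetal form, had -0.60 ± 0.49 (limma adjusted p = 0.743), and Ankrd1, a stress-induced titin-binding protein, -0.44 ± 0.49 (limma adjusted p = 0.819). For the proliferation marker Mki67 the interaction was -0.13 ± 0.39 (limma adjusted p = 0.947), with the opposite sign on the linear scale, and of 33 cell cycle genes 0 were called by limma, edgeR or DESeq2 and 1 had an unadjusted limma p under 0.05.

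The number of calls depended on which libraries entered. With 1 library left out, 2 to 57 genes were called lower and 0 to 4 higher by limma. Leaving out WT MI replicate 2, the WT MI library with the lowest Col1a1, Postn and Tnc counts, gave 57 lower and 4 higher. Of these 61, 21 belong to the 4 matrix lists, which name 97 genes. Col1a1, Postn and Tnc are on these lists, so the 21 are not independent of which library was left out. The fit with all libraries tested 15375 genes. Without WT MI replicate 1 there were 29 lower, without WT sham replicate 3 there were 20, and without OE MI replicate 1 there were 19. Leaving out any 1 of WT sham 1, 2 or 4, WT MI 3 or 4, OE sham 1, 2 or 3, or OE MI 3 brought the lower calls to between 2 and 4. Ctsk and Fbln7 were called in all 16 of these fits and the other 12 genes in 3 to 9 of them, while 14 of 14 kept their direction throughout. With WT MI replicate 1 and OE MI replicate 4 both left out, 11 genes were called lower and 1 higher, 8 of the 14 among them. With the 3 libraries of thymocyte transcripts left out, 4 were called lower and 7 higher. Ctsk (-1.75, limma adjusted p = 0.0310) and Eno2 (-3.05, limma adjusted p = 0.00527) were then the 2 of 14 still called, on a single OE MI library.

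**Figure D4:**
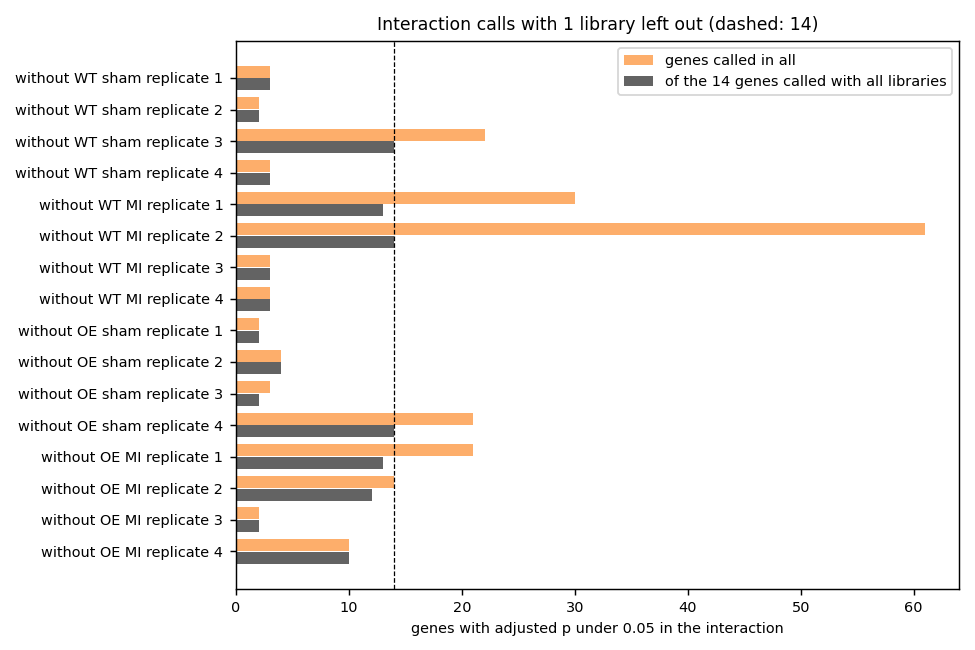
Number of genes with an adjusted p under 0.05 in the T1 interaction (x) when 1 library is left out (y): orange bars count all genes called, grey bars those of the 14 genes called with all libraries (dashed line). Totals run from 2 to 61, the highest without WT MI replicate 2.

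The later times give the same contrast in other hearts, normalized in a separate table. At T2, 2 weeks after the overexpression, 767 of 15533 genes were called (4.94%), 395 of them lower (2.54%). Of the 14 genes, 8 were called in the same direction there: Ctsk, Fbln7, Mmp2, Postn, Col3a1, Sparc, Pamr1 and Col5a2. The T2 interaction of Mmp2 was -1.55 ± 0.29 (limma adjusted p = 0.00929) beside -1.27 ± 0.19 at T1, that of Ctsk -1.38 ± 0.30 (limma adjusted p = 0.0132) beside -1.60 ± 0.19, and that of Postn -1.74 ± 0.41 (limma adjusted p = 0.0187) beside -1.81 ± 0.27. Those called at T1 without a call at T2 were Itm2a, Adamts12, Eno2, Ret, Satb1 and Ankrd63. Ret had 0.82 ± 0.39 at T2 (limma adjusted p = 0.224) and Satb1 -0.02 ± 0.26 (limma adjusted p = 0.976), both opposite in sign to T1, and Eno2 had -0.75 ± 0.37 (limma adjusted p = 0.247). At T3, 4 weeks after, limma called 1 gene in all (0.00644%) and 0 of the 14, of which 2 had an unadjusted p under 0.05 (10.7% of genes did) and 1 of those had the T1 direction. The sign was that of T1 for 12 of 14 at T2 and 10 of 14 at T3. The difference between times was not tested, and T2 groups hold 3 or 4 libraries.

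**Figure D5:**
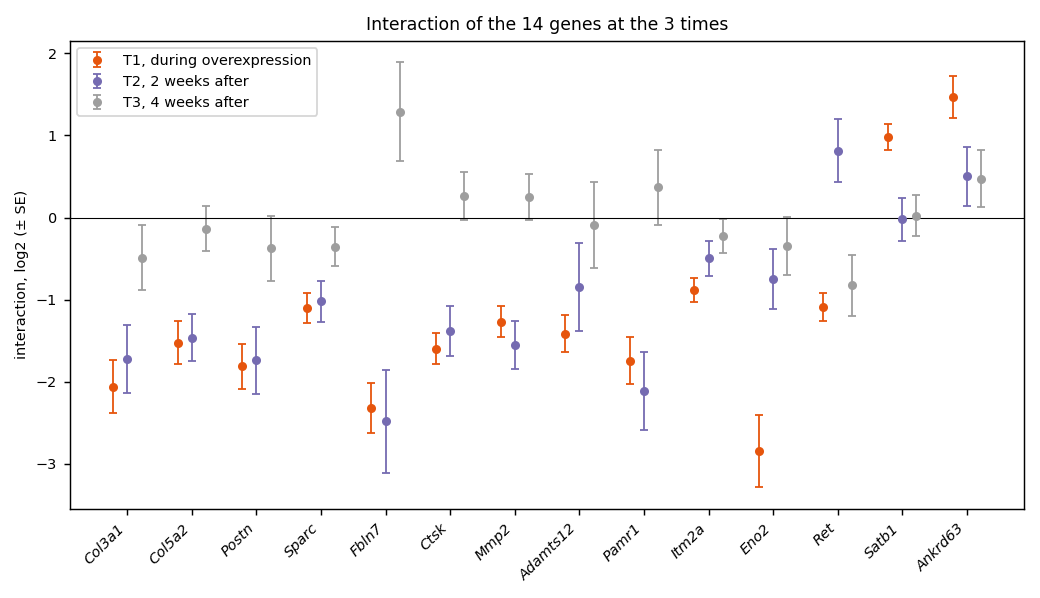
Interaction of the 14 genes (x) on the log2 scale (y) at T1 (orange), T2 (purple) and T3 (grey), each point with its standard error. Most matrix genes lie between -1 and -2.5 at T1 and T2, with Adamts12 nearer to 0 at T2, and all but Fbln7, at 1.29, lie between -0.49 and 0.37 at T3; Eno2, Ret, Satb1 and Ankrd63 are far from 0 at T1.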

How the data were processed

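Per the labels' protocols, poly-A RNA was sequenced from PBS-perfused, frozen and powdered mouse hearts. Tools named in the submitters' processing notes are cutadapt, STAR, HTSeq and DESeq2, with the build GRCm38. Neither labels nor headers state versions, settings or strandedness. The authors deposited a signal per gene and library, a normalized count per the file headers, for 19432 genes in each of 2 tables of 16 and 29 libraries, normalized separately. Sample titles gave each library's group and number. Whether libraries are separate animals is not stated, and p-values cover only how these libraries vary, which may be technical.

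At T1 all values were whole multiples of 1 read per library within 0.1 reads (100% of values), so reads could be recovered. They summed to 14694009 to 19015856 per library, which limits precision for genes of low count only. No replicate pair agreed within sampling noise (lowest chi-square per gene 8.66).

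limma 3.58.1 (R 4.3.3), with trend and robust moderation, was fitted to log2(normalized count + 1), with a mean per group, for genes with at least 10 in at least 4 libraries. Fold changes on this scale understate those of low genes. Benjamini-Hochberg adjustment ran over all genes tested and genes under 0.05 were called. The T2 and T3 fit used at least 10 in at least 3 libraries. On data simulated for this interaction 15648 genes were tested and 200 were changed. There limma recovered 63% of 100 genes set at a log2 change of 1 and 99% of 100 set at 2. Whether these shares hold at the spread of the measured genes was not tested. Of the named genes beyond 2 in size, Fbln7 (-2.32 ± 0.30), Eno2 (-2.84 ± 0.44) and Col3a1 (-2.06 ± 0.33) were called. Others were not, such as Tnc (-2.93 ± 0.58), Cilp (-2.38 ± 0.50) and Col11a1 (-3.09 ± 0.62).

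Alternatives were edgeR 4.0.16 and DESeq2 1.42.0 on recovered reads, other pseudocounts, filters and scalings, no trend and no robust moderation, the replicate number as a block, each library left out, and, chosen after seeing the data, 2 and 3 doubted libraries left out. edgeR called 16 genes (0.103%) and DESeq2 129 (0.901%); DESeq2 gave no adjusted p for 1222 genes.

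The comparison, the 36 gene lists and the named genes were chosen with earlier results of these data known. Named are 18 fixed genes, up to 12 called genes each way by p and up to 2 called members per list. Col6a1, Adra1b, Ppic, Ccl22, Spred1, Col11a1, Mmp14, Col1a2, Cilp, Lck, Tcf7, Lrrc15, Wif1, the other thymocyte genes and the genes first named in the closing section were chosen after their values were seen. Gene positions came from GENCODE M21, which holds 19390 of the gene identifiers.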

Additional observations from a re-analysis of the deposited data

Results flagged for a closer look

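The 14 called genes are listed here because the injury effect differed between genotypes by a test of the difference itself. On the log2 scale the interaction was -1.60 for Ctsk, -2.32 for Fbln7, -1.27 for Mmp2, -1.81 for Postn, -2.84 for Eno2, -1.09 for Ret, -1.41 for Adamts12, -2.06 for Col3a1, -1.10 for Sparc, -1.74 for Pamr1, -0.88 for Itm2a and -1.52 for Col5a2. It was 0.98 for Satb1 and 1.47 for Ankrd63. Errors and adjusted p-values stand with each gene in the results.

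Of 160 gene and group combinations of 4 libraries examined, 13 held a library far from the other 3 by Dixon's test, where chance gives about 1 in 20. Among called genes, Mmp2 was at 7973.76 in OE MI replicate 3 beside 9320.26 to 9443.63 in the others, and Eno2 was at 276.91 in OE MI replicate 1 beside 78.66 to 100.44. Among collagens, Col1a1 was at 15124.81 in OE sham replicate 4, and Col11a1 was at 12.83 in WT sham replicate 1 and at 200.67 in WT MI replicate 3. WT MI replicate 2 stood apart for Myh7, at 24944.59, and for Cd68, at 258.95. Among ERK genes, Phlda1 was at 348.75 in WT sham replicate 4 and at 983.87 in OE MI replicate 1, and OE MI replicate 4 was high for Spry4, at 1028.81, and for Spred1, at 1019.97. Mki67 was at 864.71 in OE MI replicate 3, and Ccl22 at 1.27 in WT sham replicate 2, the other WT sham libraries being at 0. What set these libraries apart was not tested.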

How the results depend on the processing

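All 14 called genes kept their direction under each of the 28 alternatives. The counts of 12 lower and 2 higher moved more. DESeq2 gave 109 lower and 20 higher. Higher calls numbered 1 with a filter at 50, 1 without trend and robust moderation, 1 without both MI libraries on the sham side, and 0 with library totals. Library totals left 9 lower, ending the calls of Satb1, Ankrd63, Pamr1, Col5a2 (limma adjusted p = 0.0721 each) and Itm2a (0.0865). Without trend and robust moderation 9 were lower, and Satb1, Sparc, Pamr1, Itm2a and Col5a2 were not called (0.0501 to 0.0709). Without the 3 OE MI libraries holding thymocyte transcripts there were 4 lower and 7 higher. Leaving out 1 library gave 2 to 57 lower and 0 to 4 higher. With the replicate number as a block there were 6 lower and 1 higher, 5 of the 14 among them. The numbers did not pair the libraries: same-numbered libraries correlated at -0.352 to 0.248 in their deviations from group means, others at -0.309 to 0.336, and 2 of 16 libraries correlated best with their own number. Among genes not called, Myh6 changed sign with library totals (-0.0155) and TMM (-0.0123), and Tcf7 without the thymocyte-transcript libraries (-0.21). With 1 library left out, Erbb2 ran from -0.53 to 0.0841, Myh6 from -0.0776 to 0.14 and Mki67 from -0.36 to 0.13. The cause was not tested. At T2, 8 of 14 genes were called with either other pseudocount, and 6 of 9 with library totals. Depth limits Ccl22, with 0 to 1.27 in WT sham.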

Other observations

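With the 3 OE MI libraries holding thymocyte transcripts left out, 9 genes were called that were not called with all libraries. They include Gdf15, a stress-induced cytokine, at -4.30, and Kcnh2, a cardiac potassium channel gene, at 1.22. Tcap, which encodes a titin-binding sarcomere protein, had 1.53. These values rest on OE MI replicate 2 alone, assumed to vary like the other groups.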
